A study of Homo sapiens with 6 samples.

Results

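The drug efflux genes of the ATP-binding cassette (ABC) family described here, ABCB1, ABCB6, ABCC1, ABCC2, ABCC3, ABCC4, ABCC5, ABCC10 and ABCG2, were followed in A549, an established line of human lung adenocarcinoma cells. These 9 genes were picked by symbol, without a rule on their measured values but with earlier results of these data known. Of them, 8 are among the 17787 symbols listed in the 6 libraries. The groups were siNC (3 libraries, genotype label wild type) and siFOXD3 (3 libraries, genotype label siFOXD3). The name siFOXD3 stands for a short interfering RNA, which lowers the transcript of its target, here the forkhead transcription factor FOXD3. The meaning of siNC is not written out in the labels, and it served as the control group here; they also give no siRNA sequence, dose or time. Both groups come from the same cell line, and nothing in the labels says whether the replicates are separate cultures. The p-values therefore reflect spread among these 6 libraries alone, which may be technical. Of the 9 transporters, 8 were listed in all libraries and ABCB1 was listed in none. In siFOXD3 the transcripts of ABCB6, ABCC2, ABCG2 and ABCC4 were higher, those of ABCC3 and ABCC10 were lower, and those of ABCC1 and ABCC5 did not pass the test.

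ABC transporters are membrane proteins that use ATP binding and hydrolysis to move substrates across a membrane. The drug efflux members carry anticancer drugs, toxins and conjugated metabolites out of the cell, and they are known from tumours that resist chemotherapy. ABCB1 (P-glycoprotein) and ABCG2 (breast cancer resistance protein) export many unconjugated drugs, while the ABCC or multidrug resistance-associated proteins mostly export organic anions, among them glutathione, glucuronide and sulfate conjugates. In polarised epithelium ABCC2, ABCB1 and ABCG2 lie in the apical membrane and ABCC3 in the basolateral membrane. A549 cells carry a mutation in KEAP1, the inhibitor of the oxidative stress transcription factor NRF2, and several ABCC genes are known NRF2 targets.

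The regions before the gene starts are shown first since FOXD3 binds forkhead sites and NRF2 and AHR are known regulators of several members. RefSeq windows on build GRCh38.p14 were matched by symbol for 7 of the 9 members (13 windows, since ABCB1, ABCG2 and ABCC10 have several starts), with none for ABCC1 and ABCC3, and the 250 bases before each start were searched on both strands. The forkhead cores TGTTTAC and TGTTTGC were in no window of any member, and in 6.09% of all 35116 windows of that length in the table. Other forkhead sequences were not searched. At that share few of 13 windows would hold a core, so the absence says nothing on FOXD3 sites. The core of the antioxidant response element, TGACNNNGC, to which NRF2 binds, was in 3 of the 13 member windows (23.1%, 1 window each of ABCB6, ABCC4 and ABCC10), against 10.9% of all windows. The 3 stretches below hold it with 10 bases on either side, the core in capitals, each written 5′ to 3′ on the gene's strand (ABCB6 at chr2:219219092-219219120, minus strand; ABCC10 at chr6:43427388-43427416, plus strand; ABCC4 at chr13:95301582-95301610, minus strand, where the core reads on the opposite strand).
ABCB6: cctgggcacgTGACCAAGCcggctctgct
ABCC10: aggttataaaTGACGTTGCactaagggag
ABCC4: gtctcctcccGCCGCGTCAcccgtcggtc
ABCB6 and ABCC4 rose in siFOXD3 and ABCC10 fell. The ABCC10 core, however, stood only before a start whose following bases lay in no transcript of the GENCODE annotation. The other ABCC10 window, whose following bases lay in such a transcript, held none of the cores searched. That the letters stood before genes that moved in both directions thus rests on that ABCC10 start alone. The core of the element bound by the aryl hydrocarbon receptor AHR, GCGTG, was in 6 of the 13 windows (46.2%, in ABCB1, ABCC4, ABCC10 and ABCG2, whose windows overlap in part), against 32.2% of all windows. The window of ABCC2, which was the most abundant member in siFOXD3, held none of these letters and is shown whole (chr10:99782390-99782639, plus strand, no capitals since no core was found).
ABCC2: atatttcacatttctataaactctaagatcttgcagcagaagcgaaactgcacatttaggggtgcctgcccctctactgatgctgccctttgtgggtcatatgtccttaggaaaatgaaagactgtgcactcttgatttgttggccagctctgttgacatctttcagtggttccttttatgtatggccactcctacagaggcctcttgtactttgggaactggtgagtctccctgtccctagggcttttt
A match is a description of letters and not a bound site, and the libraries do not tell which of several starts was in use.

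Values are FPKM (fragments per unit of transcript length and of sequencing depth), so levels of different genes can be compared. The files hold no counts, and the spacing of low values gave an estimated 7480000 to 9000000 fragments per library. At that depth, and with each gene's longest protein-coding transcript, the 8 listed members rested on an estimated 174 (ABCG2) to 4452 (ABCC2) fragments per library. The counting error in each member's lowest library was 2.12% to 7.57%, which covers counting error only. Shorter transcripts in use would mean fewer fragments. Libraries of the same group correlated at r = 0.985 to 0.991 over 12555 genes (across genes, which are not independent replicates) and libraries of different groups at 0.937 to 0.947. FOXD3 itself had 0.152, 0.291 and 0.134 FPKM in the siNC libraries and 0.0749 FPKM in siFOXD3 replicate 2, with no listing in the other siFOXD3 libraries, and it was too low to be tested. The epithelial markers of the A549 label, 7 of 7, were at 1 FPKM or more in both groups. The extraction text names retina, and of 12 photoreceptor markers GNGT1 was the only one at 1 FPKM or more in any library, with GNAT1, SAG, RCVRN and OPN1SW at 0 (summed level 2.70 to 5.01 FPKM in siNC, 2.09 to 2.96 FPKM in siFOXD3). Of 10 leukocyte markers 3 reached 1 FPKM in siNC (CD14, CD68 and LAPTM5, with MS4A1 at 0). The list's summed level ran from 75.05 to 84.8 FPKM in siNC and from 67.4 to 68.6 FPKM in siFOXD3. Most of this sum was CD68, at 69.5 to 78.9 FPKM in siNC and 65.2 to 66.8 FPKM in siFOXD3. Of 7 fibroblast markers COL1A1 reached 1 FPKM, with DCN and LUM at 0 (summed level 3.66 to 4.61 FPKM in siNC, 2.96 to 3.63 FPKM in siFOXD3), and of 6 endothelial markers CDH5 did (2.67 to 3.51 and 1.90 to 2.18 FPKM). Of 7 alveolar type 2 markers SFTPD, LAMP3 and NKX2-1 reached 1 FPKM in a siNC library, with SFTPB at 0 (5.11 to 5.78 and 3.04 to 3.27 FPKM). The part of these markers in the results below was not tested.

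**Figure D1:**
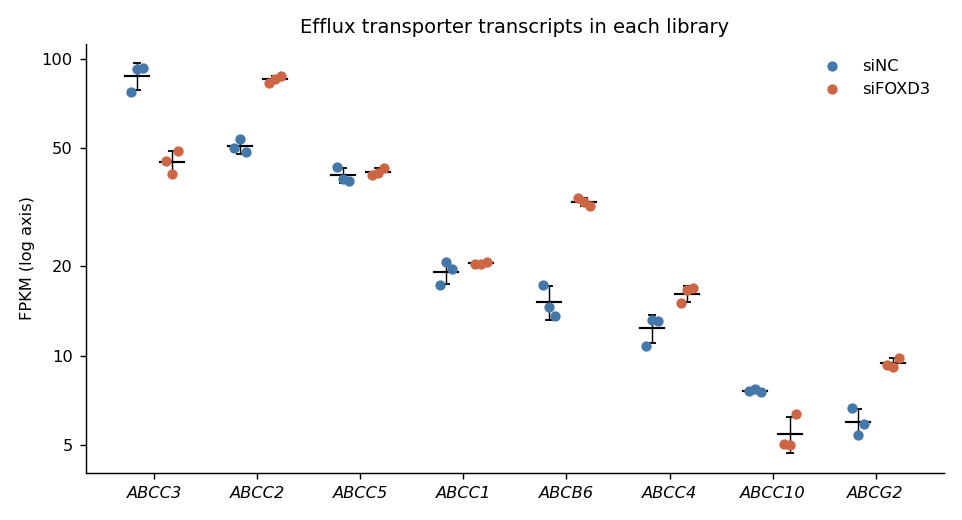
FPKM (log axis) of the 8 listed efflux transporters in each library, siNC in blue and siFOXD3 in orange, with the mean (black line) and SD (error bar) of 3 libraries. The groups are apart for ABCC3, ABCC2, ABCB6, ABCC4, ABCC10 and ABCG2 and overlap for ABCC5 and ABCC1.

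Across the transporters, limma on log2(FPKM + 1) with Benjamini-Hochberg adjusted p-values (over every gene tested) called 6 of the 8 tested members at an adjusted p under 0.05, 4 higher and 2 lower. The comparison addresses how transcript levels differ under siFOXD3, and the background was broad: 65.9% of the 12555 genes tested were called, 27.2% higher and 38.7% lower, so the share of members called lay near that of all genes. Each of the 8 tested members was above the filter of 1 FPKM in all 6 libraries. For 6 members no siNC library reached into the siFOXD3 range, against 70.7% of all genes tested. A called rise of at least 0.5 on the log2 scale was seen for 3 members (ABCB6, ABCC2 and ABCG2) and for 11.2% of genes tested, and a called fall of that size for 1 member (ABCC3) and 20.7% of genes tested. ABCB6 was also the 1 member with a called rise of at least 1 (1.74% of genes tested), and no member had a called fall of at least 1 (5.97%). The median log2 fold change of the tested members was 0.23, against -0.08 over all genes tested. ABCB1, the member with no listed value, is set at 0 by the rule and passed no filter. Since a symbol can go unlisted for reasons other than a lack of fragments, no level or fold is given for ABCB1. In bulk RNA, fewer cells with a transcript and less transcript per cell cannot be told apart.

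The direction of the background moved with the scaling, and median-of-ratios scaling shifted the median of all genes from -0.08 to 0.02 on the log2 scale. Lower calls made up 58.7% of calls on the deposited values, 47.1% after median-of-ratios scaling and 47.4% after quantile normalization. The 6 member calls and their directions held under both scalings. ABCC1 and ABCC5 were called higher with median-of-ratios scaling alone among the settings run (log2 fold changes 0.20 and 0.15, limma adjusted p = 0.0210 and 0.0494).

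Among the apical transporters, ABCC2 (MRP2), which exports conjugates and platinum complexes, stood at 49.9, 53.7 and 48.4 FPKM in siNC and at 83.1, 85.5 and 87.5 FPKM in siFOXD3. Every siFOXD3 library lay well above the highest siNC library. The mean rose from 50.7 ± 2.77 to 85.4 ± 2.18 FPKM (SD, n = 3 each), a log2 fold change of 0.74 ± 0.05 (SE, limma adjusted p = 1.25e-06). Of all genes tested, 4.89% were called with a rise at least as large. ABCG2, which exports topoisomerase inhibitors and urate and works as a pair of identical subunits, stood at 6.64, 5.38 and 5.90 FPKM in siNC and at 9.32, 9.13 and 9.83 FPKM in siFOXD3. It was the scarcest listed member in siNC and passed ABCC10 in siFOXD3. Its log2 fold change was 0.58 ± 0.09 (SE, limma adjusted p = 0.000168), and 8.59% of genes tested were called with a rise at least as large.

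ABCC3 (MRP3), a basolateral exporter of glucuronides and bile acids, moved the other way. It stood at 77.2, 92.4 and 92.9 FPKM in siNC and at 45.1, 40.9 and 48.8 FPKM in siFOXD3. The groups were far apart, and siNC replicate 1 was the lowest of the siNC libraries. The mean fell from 87.5 ± 8.89 to 44.9 ± 3.96 FPKM (SD, n = 3 each), a log2 fold change of -0.94 ± 0.08 (SE, limma adjusted p = 4.91e-06), and 6.95% of genes tested were called with a fall at least as large.

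ABCC3 was the most abundant member in every siNC library and ABCC2 in every siFOXD3 library. The ratio of ABCC2 to ABCC3 FPKM, a measure chosen after the values were seen, was 0.646, 0.582 and 0.521 in siNC and 1.84, 2.09 and 1.79 in siFOXD3. The mean ratio was thus 3.27 times higher in siFOXD3 (0.583 ± 0.0628 against 1.91 ± 0.161, SD, n = 3 each), given as a description with no test, since the pair was picked for moving apart. A factor that multiplies all values of a library, as in median-of-ratios scaling, leaves this ratio unchanged. Quantile normalization is not of that kind.

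The other multidrug resistance-associated proteins changed less. ABCC4 (MRP4), which exports cyclic nucleotides, prostaglandins and nucleoside drugs, stood at 10.8, 13.2 and 13.1 FPKM in siNC and at 15.0, 16.6 and 16.8 FPKM in siFOXD3. The groups did not overlap, and replicate 1 was the lowest library in both. The log2 fold change was 0.36 ± 0.09 (SE, limma adjusted p = 0.00370), and 17.03% of genes tested were called with a rise at least as large. ABCC10 (MRP7), linked to taxane resistance, was tight in siNC at 7.57, 7.70 and 7.51 FPKM and lower in siFOXD3 at 5.02, 4.995 and 6.35 FPKM. The groups did not overlap, and siFOXD3 replicate 3 lay nearest to siNC. ABCC10 fell by 0.42 on the log2 scale (SE 0.09, limma adjusted p = 0.00276), and 24.7% of genes tested were called with a fall at least as large.

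ABCC1 (MRP1), the exporter of glutathione conjugates and anthracyclines after which the subfamily's drug pumps were named, stood at 17.3, 20.6 and 19.5 FPKM in siNC and at 20.3, 20.4 and 20.6 FPKM in siFOXD3. The groups overlapped, and siNC replicate 1 was the lowest library. Its log2 fold change was 0.09 with a 95% interval from -0.06 to 0.25 (limma adjusted p = 0.270). ABCC5 (MRP5), an exporter of cyclic nucleotides and nucleotide analogues, stood at 43.1, 39.4 and 38.8 FPKM in siNC and at 40.5, 41.1 and 42.9 FPKM in siFOXD3, and the groups overlapped. Its log2 fold change was 0.04 with a 95% interval from -0.09 to 0.16 (limma adjusted p = 0.583). Neither p shows that these levels were equal, and the intervals leave room for rises of up to 0.25 and 0.16.

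ABCB6, a porphyrin transporter described in mitochondrial and other membranes that also works as a pair of identical subunits, had the largest change of the members. It stood at 17.3, 14.6 and 13.6 FPKM in siNC and at 34.0, 33.0 and 31.9 FPKM in siFOXD3. Each siFOXD3 library lay far above each siNC library. The mean rose from 15.2 ± 1.94 to 33.0 ± 1.05 FPKM (SD, n = 3 each). That is 2.17 times as much, or 1.08 ± 0.08 as a log2 fold change (SE, limma adjusted p = 1.93e-06). Of all genes tested, 1.24% were called with a rise at least as large. For each of the 6 called members the two-sided exact permutation test over libraries gave p = 0.1, below which 3 libraries against 3 cannot go, and it gave p = 0.4 for ABCC1 and p = 0.6 for ABCC5.

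**Figure D2:**
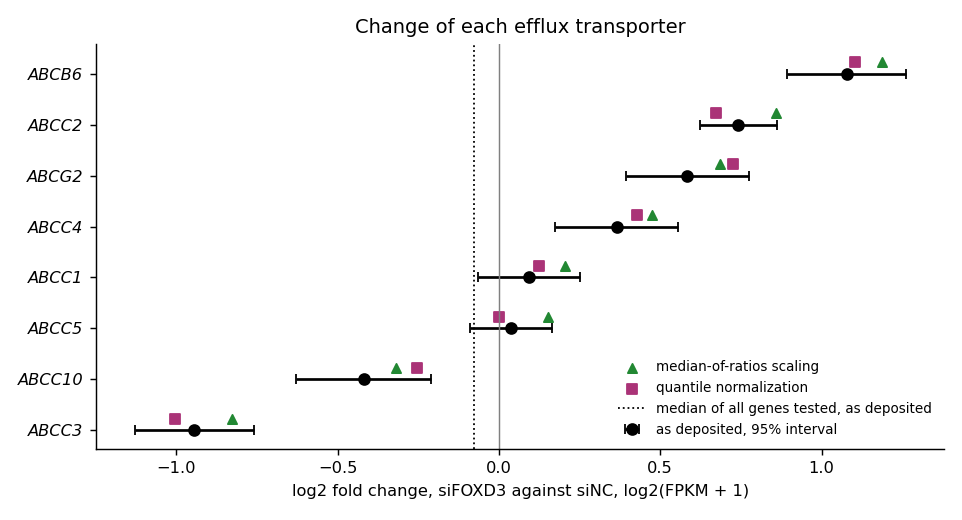
Log2 fold change of each tested efflux transporter, siFOXD3 against siNC on log2(FPKM + 1), as deposited with its 95% interval (black), with median-of-ratios scaling (green triangles) and with quantile normalization (purple squares); the dotted line is the median of all genes tested, -0.08. ABCB6 at 1.08 and ABCC3 at -0.94 mark the ends, and the intervals of ABCC1 and ABCC5 include 0.

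In siNC the order of levels was ABCC3, ABCC2, ABCC5, ABCC1, ABCB6, ABCC4, ABCC10 and ABCG2. Among neighbours in that order ABCC1 and ABCB6 overlapped in their library values (the lowest ABCC1 library was at 17.3 FPKM, the highest ABCB6 library also at 17.3 FPKM), and the others did not. In siFOXD3 the order was ABCC2, ABCC3, ABCC5, ABCB6, ABCC1, ABCC4, ABCG2 and ABCC10, and ABCC3 (44.9 ± 3.96 FPKM) and ABCC5 (41.5 ± 1.25 FPKM) overlapped. ABCC2 and ABCC3 changed places, as did ABCB6 and ABCC1, and ABCG2 and ABCC10.

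The summed FPKM of the members was 229.8, 247 and 239.7 in siNC and 252, 252 and 265 in siFOXD3. The siFOXD3 sums all lay above the siNC sums, but by little: the ratio of means was 1.07 (239 ± 8.66 against 256 ± 7.31 FPKM, SD, n = 3 each; two-sided exact permutation test, p = 0.1). Within the sum the make-up shifted. ABCC3 held 33.6% to 38.7% of it in the siNC libraries and 16.2% to 18.4% in the siFOXD3 libraries, while ABCC2 went from 20.2% to 21.7% in siNC to 32.9% to 34.0% in siFOXD3. ABCB6 held a mean of 6.37% in siNC and 12.9% in siFOXD3, and ABCC5 a mean of 16.97% and 16.2%.

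**Figure D3:**
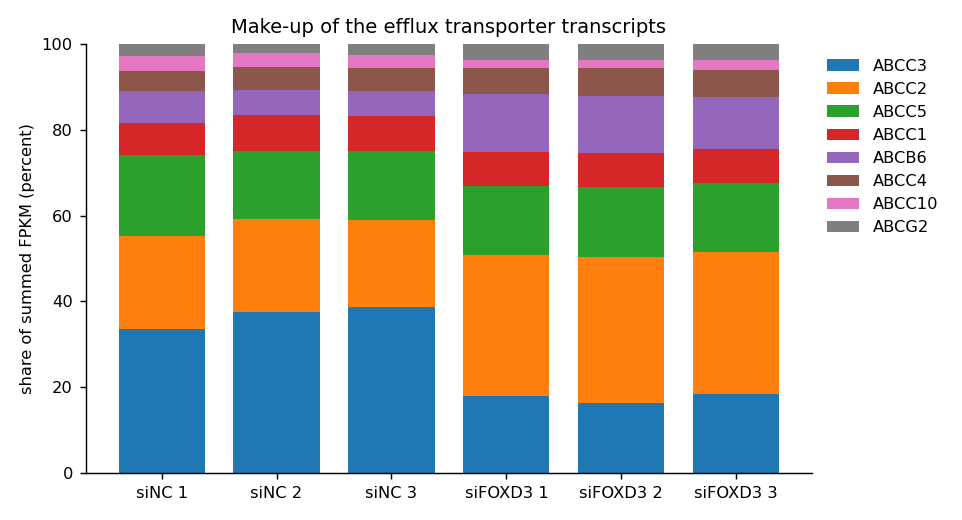
Share (percent) of the summed FPKM of the 8 listed efflux transporters held by each, in the 3 siNC and 3 siFOXD3 libraries. ABCC3 (blue) takes 33.6% to 38.7% in siNC and 16.2% to 18.4% in siFOXD3, and ABCC2 (orange) and ABCB6 (purple) take larger shares in siFOXD3.

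The rest of the ABC family, 39 genes, includes lipid, peptide and peroxisomal transporters and proteins of translation. Of these, 20 were tested, 10 were called higher and 8 lower, with a median log2 fold change of 0.14. The count called lower was 5 without siNC replicate 3, and 1 of the 8 (ABCG1) passed the filter through siNC alone. Over all genes tested, 27.2% were called higher and 38.7% lower, and the subfamily counts that follow stand against these shares. The non-transporters ABCE1, which recycles ribosomes, and ABCF1, ABCF2 and ABCF3 were all called higher. ABCE1 rose from 15.4 ± 0.318 to 37.6 ± 1.38 FPKM (SD, n = 3 each; log2 fold change 1.24, limma adjusted p = 7.13e-08). Of 6 tested ABCA genes, which mostly move lipids, 5 were called lower, among them ABCA2 (-0.89), ABCA3 (-0.66), which loads surfactant lipids in alveolar cells, and ABCA7 (-0.52), and ABCA4, known from photoreceptors, was called higher (0.55).

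Among closer relatives of the efflux members, the cholesterol exporter ABCG1 was at 2.80 ± 0.603 FPKM in the siNC libraries and 0.202 ± 0.0765 FPKM in the siFOXD3 libraries (SD, n = 3 each). It was below 1 FPKM in every siFOXD3 library and so entered the test through siNC alone, and its values are given with no test. The peptide transporter subunit TAP1 fell by 0.87 on the log2 scale. Of the 6 tested ABCB genes outside the efflux members, TAP1 was the 1 called lower. In that group 3 were called higher, among them TAP2 (0.29). In the peroxisomal subfamily ABCD3, a fatty acid transporter, rose by 0.69 and ABCD4, involved in cobalamin transport, fell by 0.69. No ABCC gene outside the efflux members passed the filter on low values: ABCC6, ABCC9, ABCC11 and the chloride channel CFTR stayed below 1 FPKM in every library, and ABCC8 and ABCC12 were not listed.

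**Figure D4:**
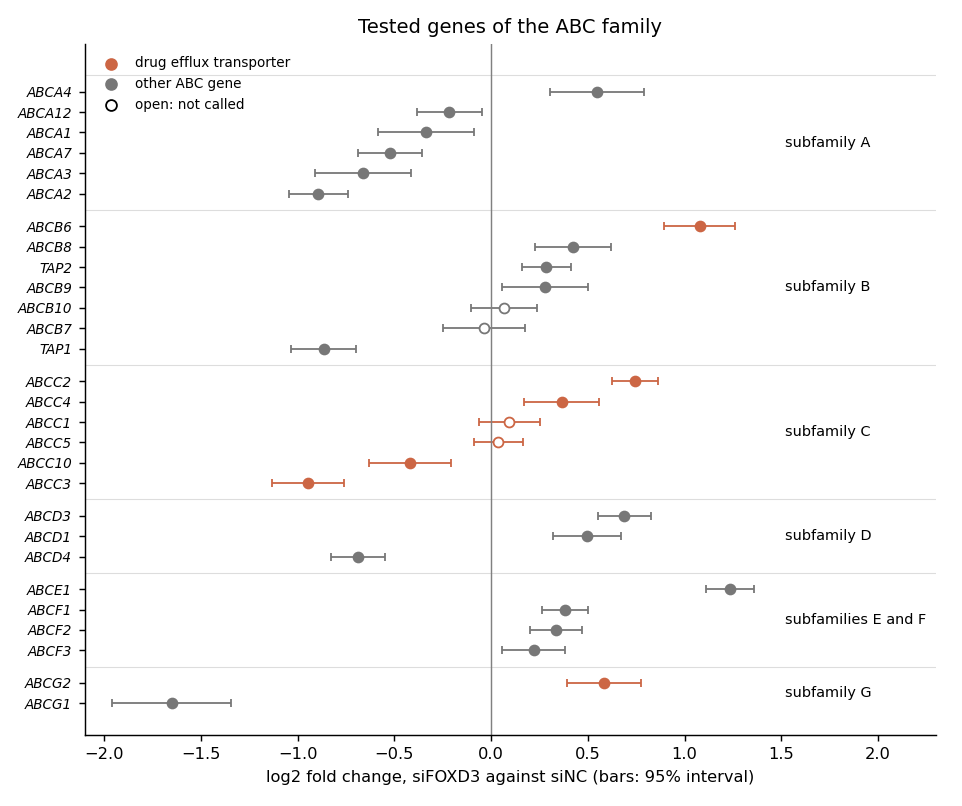
Log2 fold change, siFOXD3 against siNC, with its 95% interval, for the 28 tested genes of the ABC family by subfamily; efflux transporters in orange, other genes in grey, open circles for genes not called by limma. Subfamilies A, B, C and D hold genes on both sides of 0, and the 4 genes of E and F all lie above it. In subfamily G, ABCG2 lies above 0. ABCG1 entered the test through siNC alone, so its side of 0 was set by the filter and is not read as a result.

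Genes that are known to act on efflux transporter genes were read from the same fit, and the counts below stand against 27.2% called higher and 38.7% called lower over all genes tested. Of 23 tested regulators 5 were called higher and 12 lower, with a median of -0.31, and 8 were called higher with median-of-ratios scaling. The largest changes were falls, in the small MAF protein MAFF (-1.18), the transcription factor ETS1 (-1.06) and BACH1 (-1.06), which competes with NRF2 for its elements. The BACH1 level was 14.9 ± 2.09 FPKM with siNC, dropping to 6.63 ± 0.488 FPKM with siFOXD3 (SD, n = 3 each; limma adjusted p = 7.04e-06). Of 30 tested NRF2 target genes that are not ABC transporters, 19 were called higher and 4 lower, with a median of 0.31. GPX2, a glutathione peroxidase, rose by 1.89, UGDH, which makes the sugar donor for glucuronides, by 1.60 and OSGIN1, a stress response gene, by 1.58. Among the 4 called lower, AKR1B1 fell most (-1.26). Of the regulators, NFE2L2, the gene of NRF2, was not called (0.09, limma adjusted p = 0.327) and KEAP1 was called higher (0.36). A change in NRF2 activity was not tested. Of 6 tested AHR targets 3 were called higher and 2 lower (median 0.10): the aldehyde dehydrogenase ALDH3A1 rose by 0.88, and the feedback repressor AHRR (-0.75) and TIPARP (-0.38) fell. AHRR reached the filter mostly through siNC (2.24 ± 0.437 FPKM with siNC, 0.916 ± 0.200 FPKM with siFOXD3, SD, n = 3 each). NQO1 stands in both target lists and AHRR among the regulators as well. The AHR target UGT1A6, called higher (0.36), is also counted among the conjugation enzymes below.

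Of 20 tested conjugation enzymes, which make the conjugates exported by ABCC proteins, 5 were called higher and 12 lower, with a median of -0.18. With median-of-ratios scaling 7 were called higher and 8 lower. The glutathione transferases GSTM4 (-1.24), GSTT2 (-0.78) and GSTK1 (-0.75) had the largest changes. GSTT2 reached the filter mostly through siNC (2.49 ± 0.383 FPKM with siNC, 1.06 ± 0.477 FPKM with siFOXD3, SD, n = 3 each). Glutathione transferase genes of the same class are close copies, so reads can be split between them. Of 19 tested solute carriers and metal pumps that handle drugs 2 were called higher and 11 lower, with a median of -0.31, and with median-of-ratios scaling 4 were called higher and 9 lower. Of the 11, 5 were below 1 FPKM in every siFOXD3 library and entered the test through siNC alone, so this count and median give no support to a lean of the list. They include the 3 with the largest differences, given as values: the organic anion carrier SLCO2B1 (6.19 ± 0.878 FPKM with siNC, 0.307 ± 0.117 FPKM with siFOXD3, SD, n = 3 each), the nucleoside carrier SLC28A3 (3.29 and 0.522 FPKM) and the peptide carrier SLC15A1 (2.32 and 0.234 FPKM). Without any 1 siNC library the count called lower was 5. The 5 genes that entered through siNC alone did not pass the filter in those runs, which is part of this drop. Of 9 tested scaffold proteins and other membrane partners 4 were called higher and 4 lower (median -0.05). Radixin (RDX), which anchors ABCC2 in the apical membrane, rose from 30.4 ± 3.93 to 49.2 ± 0.761 FPKM (log2 fold change 0.68, limma adjusted p = 4.27e-05), caveolin CAV1 rose by 0.55 and the major vault protein MVP, also called lung resistance protein, fell by 0.67.

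The nearest protein-coding genes on the chromosome, in RefSeq order, moved in both directions and in part against the members. Beside ABCB6, which rose, ATG9A, an autophagy protein, and ZFAND2B both fell (-0.23 and -0.36, limma adjusted p = 0.00687 and 0.00153), although the fall of ATG9A was not called with median-of-ratios scaling (adjusted p = 0.112). Beside ABCC2, DNMBP fell by 0.68 and CUTC had a log2 fold change of -0.03 (adjusted p = 0.758). Beside ABCG2, the phosphatase PPM1K was called lower (2.66 ± 0.624 FPKM with siNC, 0.879 ± 0.148 FPKM with siFOXD3, SD, n = 3 each) but reached the filter mostly through siNC, and PKD2 had a log2 fold change of -0.13 (limma adjusted p = 0.235). Beside ABCC3, ANKRD40 had a log2 fold change of 0.03 (adjusted p = 0.721) and CACNA1G stayed below 1 FPKM. Next to ABCC10 and falling with it was TJAP1 (-0.38), while DLK2, which overlaps ABCC10, was low in both groups (1.03 ± 0.243 FPKM in siNC, 1.18 ± 0.368 FPKM in siFOXD3, SD, n = 3 each). DLK2 was not called on the deposited values and was called higher with quantile normalization (0.49, limma adjusted p = 0.0196). Next to ABCC5, PARL rose by 0.40, and next to ABCC1, CEP20 (listed as FOPNL) had a log2 fold change of 0.16 (limma adjusted p = 0.155), which was called with median-of-ratios scaling (0.28, adjusted p = 0.0192). The handling of strand is not given in the sources used here, so reads of ABCC10 and DLK2 cannot be told apart where they overlap.

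The tested genes most like ABCB6 over the 6 libraries were YBX1, an RNA and DNA binding protein that is among the regulators above, IRAK1, a kinase of innate signalling, and MYBL2, a cell cycle transcription factor, each at a Pearson r of 1.00 on log2(FPKM + 1). YBX1 stood at 582, 544 and 527 FPKM in siNC and at 791, 775 and 770 FPKM in siFOXD3. Those most like ABCC3 were FLJ46906, ERBB2IP and AGER, at r of 0.999 each. The 6 points fall in 2 groups, and such values are common: 1597 genes were above r = 0.95 with ABCB6 and 2164 with ABCC3.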

How the data were processed

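Messenger RNA of A549 cells was compared between 3 siNC and 3 siFOXD3 libraries, grouped by sample title. The deposited values are FPKM per gene row, per the file headers; TopHat, Cufflinks and build hg19 are named per the submitters' processing notes, while their versions, the annotation and strand handling were not given in the sources used here. An Illumina TruSeq kit was used on 1 ug of total RNA, per the labels' protocols. Rows of a symbol were summed and an unlisted symbol was set to 0; each listed member had 1 row per file. No pair of libraries in a group shared more than 0.0128% identical values.

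Genes with at least 1 FPKM in at least 3 libraries were tested with limma 3.58.1 (R 4.3.3) on log2(FPKM + 1) (trend and robust, group as the only term), and p-values were Benjamini-Hochberg adjusted over every gene tested; fold changes on this scale understate those of low genes. Python 3.11.15, pandas 2.3.3, numpy 2.4.6, scipy 1.17.1 and matplotlib 3.10.9 did the rest. The step sizes of low FPKM values gave the depth. The fit to whole steps reached a mean cosine of 0.242 to 0.339 over the libraries, where exact steps would give 1. Genes whose 1 GENCODE 29 transcript is 700 to 4000 bases long were used, and fragments were taken as 150 bases. On 6 simulated libraries the depth was within 3.15%. Those were made with the same fragment length and with transcript lengths scattered around the same ones. The 3.15% thus leaves out error from the assumed fragment length and annotation. Fragments of each member were computed with its longest protein-coding GENCODE 29 transcript. On simulated data for the 12555 genes, with 200 changed, the fit recovered 22% of changes of 0.25, 72% of 0.5, 94% of 1 and 100% of 2 on the log2 scale. It made 5 false calls in 149. The changed genes were drawn from the better expressed ones and were far fewer than the 65.9% called in the data. The adjusted threshold depends on that share, so these figures do not give the recovery or the false calls of this comparison.

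The members and the gene lists were chosen with earlier results of these data known. The genes named were FOXD3, the members, other ABC genes called with a change of at least 0.5, up to 3 called genes with the largest change in each other list, the nearest neighbours, the 3 genes most like the member that rose most and the one that fell most, and markers at 1 FPKM or more where at most 3. Other genes were named as examples after their values were seen (ABCF1, ABCF2, ABCF3, TAP2, the ABCC genes below the filter, NFE2L2, KEAP1, AKR1B1, NQO1, UGT1A6, and markers at 0). Alternatives were pseudocounts of 0.1 and 5, no filter and a filter of 5 FPKM, both scalings, limma without trend and robust, the largest row of a symbol, a replicate block and leaving out each library.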

Additional observations from a re-analysis of the deposited data

How the results depend on the processing

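Of 218 recomputed values for the members and the counts of called genes and members, 214 kept their direction and their side of the threshold (counts within 1.5 times). The exceptions were ABCC1 (log2 fold change 0.20) and ABCC5 (0.15), which were called with median-of-ratios scaling, ABCC5 at -0.000399 with quantile normalization, and the summed FPKM of the members, whose ratio moved from 1.07 to 1.16 with median-of-ratios scaling; that scaling raises every siFOXD3 value relative to siNC. Leaving out each library gave 7278 to 7974 called genes, 6 called members each time and a ratio of summed FPKM of 1.05 to 1.09. Over the same runs ABCB6 lay between 1.01 and 1.17, ABCC2 between 0.71 and 0.78, ABCG2 between 0.52 and 0.65, ABCC4 between 0.28 and 0.41, ABCC10 between -0.52 and -0.37 and ABCC3 between -1.03 and -0.88, with a largest limma adjusted p of 0.0179 for these, and the ratio of ABCC2 to ABCC3 was 3.11 to 3.46 times higher in siFOXD3. Of 978 recomputed values for other genes and lists 946 kept theirs. Those that changed sign were all of genes that were not called: COL1A1 (0.0369 with quantile normalization), PKD2 (0.13 with quantile normalization), CUTC (0.0815 with median-of-ratios scaling, 0.0367 with quantile normalization, and -0.0932 to 0.00676 leaving out each library) and ANKRD40 (-0.0126 to 0.0769 leaving out each library); the cause was not tested. With median-of-ratios scaling 8 regulators and 4 drug uptake genes were called higher, against 5 and 2; with a filter of 5 FPKM, which tests fewer genes, 1 uptake gene was called higher and 6 lower (against 2 and 11), 5 other ABC genes lower (against 8) and 1 AHR target lower (against 2).

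Replicate numbers are shared by the groups, but same-numbered libraries deviated together only weakly (r = 0.0613, 0.163 and 0.115 over genes), so the numbers were not taken as pairs. With the replicate number as a block 8172 genes and 6 members were called, against 8278 and 6 without it, and no call of a member changed. Depth limits the scarcer members most: an estimated 174 fragments stood behind ABCG2 and 195 behind ABCC10 in their lowest libraries.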
